A study of Mus musculus with 40 samples.

Results

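The genes of interest encode pore-forming alpha1 subunits of voltage-gated calcium channels. They were chosen by name, as the rows of the gene count tables with the symbols Cacna1a, Cacna1b, Cacna1c, Cacna1d, Cacna1e, Cacna1g, Cacna1h and Cacna1i, which are 8 of 41388 genes. Their counts were read in 40 libraries of RNA sequencing from mouse brain at 21 d after birth. Mice carried a Cre-dependent EGFP/Rpl10a ribosome tag at the Rosa26 locus, so that ribosomes of Cre-expressing cells can be captured with an antibody to GFP (translating ribosome affinity purification, or TRAP). All mice, of both lines, carried this tag and a Cre. In RBP4-TRAP mice the Cre was Tg(RBP4-cre)KL100Gsat/Mmcd, a transgene used to mark pyramidal neurons of cortical layer 5. In VGAT-TRAP mice the Cre was inserted at Slc32a1, the gene of the vesicular GABA transporter, and marks GABAergic neurons.

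From each line 5 replicates were sequenced in 4 fractions, or 8 groups of 5 libraries. The whole-cell homogenate (WCH) held RNA of all cells, and TRAP RNA was captured on tagged ribosomes from it. The synaptoneurosome fraction (SNF) was prepared from the homogenate and holds pinched-off synaptic endings and other processes, and SynapTRAP (ST) RNA was captured on tagged ribosomes from the SNF. Mice without a Cre or without the tag were not analysed here. Each replicate was a pool of forebrains of both sexes, so that p-values measure the spread between pools. The labels give the tissue as cortex and the methods as forebrain. In such bulk fractions fewer cells of a type and less RNA per cell cannot be told apart.

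Each voltage-gated calcium channel has 1 alpha1 subunit, which forms the pore, senses voltage and sets the class of current. In the Cav1 class (L-type), Cacna1c and Cacna1d open in cell bodies and dendrites and couple calcium entry to gene expression and pacemaking. In the Cav2 class, Cacna1a (P/Q-type) and Cacna1b (N-type) trigger transmitter release at presynaptic endings, and Cacna1e (R-type) acts in dendrites and endings. In the Cav3 class (T-type), Cacna1g, Cacna1h and Cacna1i open near the resting potential and shape bursts and rebound firing.

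All 8 members passed the filter on low counts in every fit. Positions are on GRCm38, on the strand given, with the exonic length that the authors used. Cacna1a (ENSMUSG00000034656) lies at chr8:84388440-84640246 on the plus strand and has 11.418 kb of exons. Cacna1b (ENSMUSG00000004113) lies at chr2:24603887-24763152, minus, with 9.942 kb. Cacna1e (ENSMUSG00000004110), the longest, lies at chr1:154390731-154884501, minus, with 24.813 kb. The Cav1 genes are Cacna1c (ENSMUSG00000051331) at chr6:118587240-119196418, minus, with 21.191 kb, and Cacna1d (ENSMUSG00000015968) at chr14:30039949-30491156, minus, with 9.242 kb. Of the Cav3 genes, Cacna1g (ENSMUSG00000020866) lies at chr11:94408391-94474198, minus, with 10.137 kb, and Cacna1h (ENSMUSG00000024112) at chr17:25374285-25433783, minus, with 9.763 kb. Cacna1i (ENSMUSG00000022416) lies at chr15:80287238-80398279, plus, with 9.862 kb. Values are thus sums over all exons of a gene and do not tell splice forms apart.

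Counts per library ran from 69 to 406 for Cacna1g, the lowest of the 8 genes, and from 738 to 7300 for Cacna1e. The library preparation did not mark strand, so that a member and an overlapping gene on the other strand are told apart only where their exons do not overlap. Annotated overlaps on the opposite strand were the antisense gene Gm16183 with Cacna1a (mean 0.774 cpm over the 40 libraries), Dcp1b with Cacna1c (5.18 cpm), Chdh and Dcp1a with Cacna1d (1.36 and 7.11 cpm), Tpsg1 with Cacna1h (0.00567 cpm) and pseudogenes. Runs of 50 bases shared with another gene were few: 19 of 8334 in the longest transcript of Cacna1g and 20 of 9732 in that of Cacna1i, all shared with other members, and at most 1 in each of the other members.

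Values are cpm, counts scaled to the size of a library once reads of mitochondrial, rRNA and tRNA genes are taken away. The library sizes so obtained ran from 8950847 to 21976631, and 1 count was worth 0.0455 to 0.112 cpm. Mitochondrial genes took 0.0584% to 41.9% of a library, the most in replicate 3 of the SNF of both lines. RBP4 TRAP replicate 5 stood apart: 3 oligodendrocyte markers (Mbp, Mog and Mobp) summed to 3602 cpm there against 196 to 509 cpm in the other RBP4 TRAP libraries, and 9 GABAergic markers to 903 cpm against a group median of 396 cpm. In the ST libraries the oligodendrocyte markers summed to 23043 to 36112 cpm in the RBP4 line and 24917 to 47497 cpm in the VGAT line, against 1547 to 3548 cpm in the RBP4 and 1581 to 2295 cpm in the VGAT homogenate. The lines were told apart by the GABAergic markers, 11321 to 14048 cpm in VGAT TRAP and 358 to 903 cpm in RBP4 TRAP. In ST the sums overlapped (1307 to 5483 cpm in the VGAT and 622 to 1405 cpm in the RBP4 line), and 3 of the 9 markers were called between the lines. VGAT ST replicates 1 and 2, at 1307 and 1509 cpm, lay below the SNF libraries of their own pools, at 2426 and 2558 cpm, so that counts resting on VGAT ST are also given without them. In RBP4 ST replicate 4, Slc32a1 was at 49.9 cpm, where the 4 others of its group had 10.9 to 19.7 cpm, but the 9 GABAergic markers summed to 745 cpm there, the second lowest of the group. No marker of any list was at 0 in any library.

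N-type Cacna1b and R-type Cacna1e were the leading pore subunits in all 8 groups. On a scale per length of gene, the level of Cacna1b in the RBP4 homogenate was 11.7 ± 0.523 cpm per kb (SD, n = 5), followed by Cacna1e at 7.88 ± 0.752, Cacna1a at 5.24 ± 0.772 and Cacna1d at 3.71 ± 0.385 cpm per kb. Cacna1c (2.41 ± 0.237 cpm per kb) and Cacna1i (2.29 ± 0.296) overlapped, as did Cacna1h (1.21 ± 0.226) and Cacna1g (0.997 ± 0.107), and the other neighbours in this order did not. In the VGAT homogenate Cacna1b was again the highest, at 10.4 ± 1.14 cpm per kb, and Cacna1g the lowest, at 0.89 ± 0.158 cpm per kb. There the ranges overlapped between all neighbours from Cacna1a to Cacna1c and between Cacna1h and Cacna1g, and did not overlap between Cacna1b, Cacna1e and Cacna1a or between Cacna1c and Cacna1h. Per length, Cacna1b had the highest mean and Cacna1g the lowest in each of the 8 groups. In cpm, without division by length, Cacna1e was above Cacna1b in each group, with 195 and 116 cpm in the RBP4 homogenate. Cacna1h was below Cacna1g in VGAT SNF (16.9 and 17.5 cpm) and VGAT ST (17.7 and 18.0 cpm). The paper describes its reads as heavily biased to the 3´ end. The effect of this on values per length was not tested.

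Per length, the order between Cacna1b and Cacna1g differed by fraction. T-type Cacna1i came after Cacna1a and Cacna1d in the homogenates and directly after Cacna1e in TRAP and ST of both lines. In the SNF it came directly after Cacna1e in the VGAT line, and after Cacna1d and Cacna1a in the RBP4 line. Its mean was 5.49 ± 1.66 cpm per kb in RBP4 ST and 7.18 ± 1.81 cpm per kb in VGAT ST. In TRAP and ST its range overlapped both of its neighbours, Cacna1e above and Cacna1a below. In cpm, Cacna1a (22.2 cpm) and Cacna1c (21.4 cpm) were above Cacna1i (19.6 cpm) in RBP4 TRAP. Cacna1c was also above Cacna1i in VGAT TRAP (19.5 and 15.4 cpm) and RBP4 ST (54.7 and 54.1 cpm). It was below Cacna1i in VGAT ST (58.3 and 70.8 cpm). The sum over the 8 genes was 35.4 ± 0.221 cpm per kb in the RBP4 homogenate and 18.6 ± 5.7 in RBP4 TRAP. It was 54.2 ± 11.6 cpm per kb in RBP4 SNF and 39.2 ± 12.8 in RBP4 ST. In the VGAT line the sums were 30.6 ± 4.18, 13.6 ± 2.57, 57.5 ± 10.2 and 45.1 ± 8.91 cpm per kb in the same order of fractions.

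**Figure D1:**
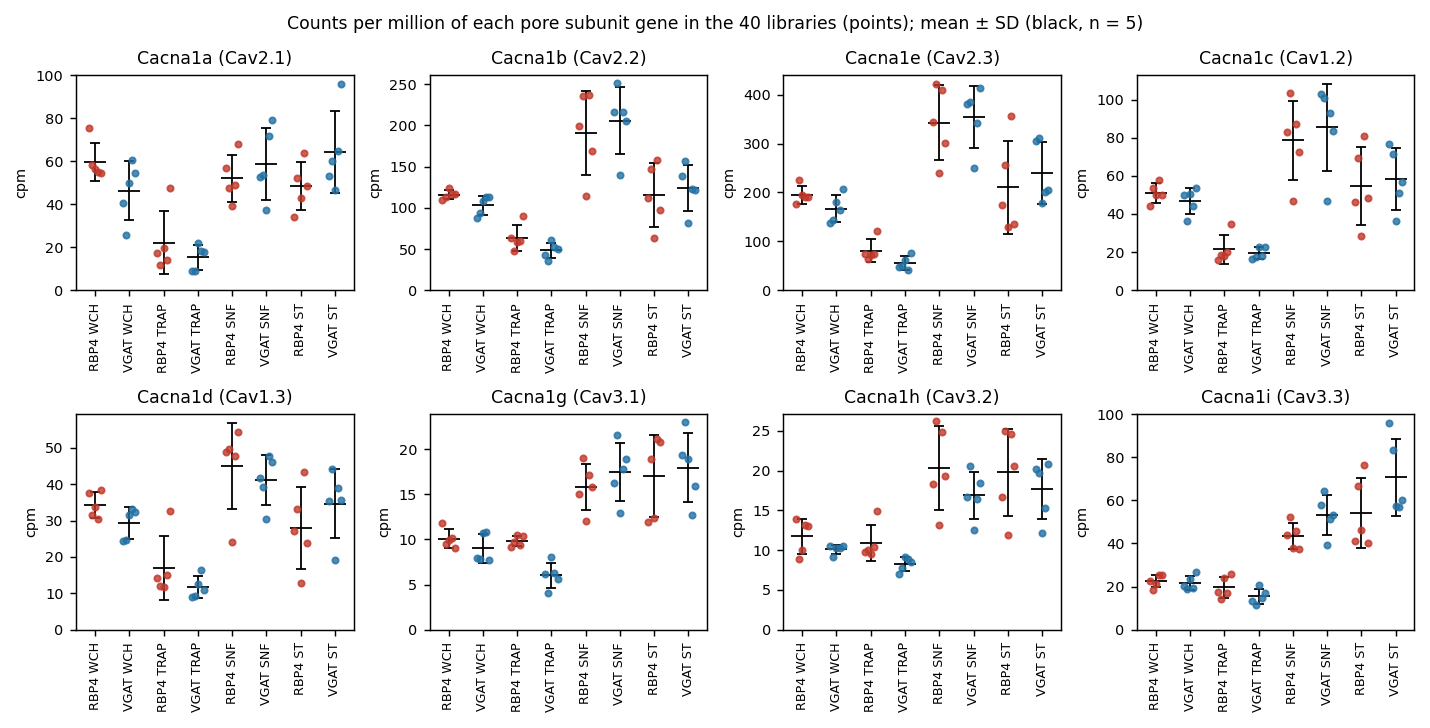
Level of each pore subunit gene in cpm (linear axis from 0, 1 panel per gene) in the 40 libraries, with points for the 5 libraries of each line and fraction (red RBP4, blue VGAT) and black bars for the mean ± SD. Cacna1b and Cacna1e reach the highest values, and all 8 genes lie higher in VGAT ST than in VGAT TRAP without overlap.

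The TRAP against WCH comparison asks which transcripts are on ribosomes of the tagged neurons more or less than in the whole tissue. Cav1 and Cav2 subunits were lower on the tagged ribosomes than in the homogenate of both lines, and 2 of 3 Cav3 subunits were lower in the VGAT line. Cacna1a, the P/Q-type subunit of presynaptic endings, was at 75.3, 58.1, 56.2, 54.9 and 54.4 cpm in replicates 1 to 5 of the RBP4 homogenate and at 17.3, 11.6, 19.9, 14.3 and 47.7 cpm in RBP4 TRAP. Only RBP4 TRAP replicate 5, at 47.7 cpm, came near the homogenate, and the groups did not overlap. The log2 change of Cacna1a was -1.43 ± 0.28 (SE, edgeR adjusted p = 0.000431), or -1.92 without RBP4 TRAP replicate 5. VGAT libraries held Cacna1a at 40.4, 25.6, 49.8, 60.8 and 54.4 cpm in the homogenate and at 9.18, 9.09, 22.1, 18.2 and 17.7 cpm in TRAP. The lowest homogenate value stood above the highest TRAP value, and the change was -1.597 ± 0.27 (edgeR adjusted p = 3.49e-05).

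R-type Cacna1e fell as well. It was at 176, 226, 194, 189.7 and 191 cpm in the RBP4 homogenate and 73.2, 62.98, 71.4, 73.4 and 122 cpm in RBP4 TRAP, with a log2 change of -1.28 ± 0.25 (edgeR adjusted p = 0.000370). For the VGAT line its values were 138, 144, 180.4, 164 and 206 cpm in the homogenate and 47.1, 50.5, 61.9, 40.5 and 76.2 cpm in TRAP, a change of -1.59 ± 0.19 (edgeR adjusted p = 5.66e-07). The groups did not overlap in either line. N-type Cacna1b fell by 0.86 ± 0.23 on the log2 scale in the RBP4 line (edgeR adjusted p = 0.00462). The VGAT libraries gave -1.097 ± 0.17 for it (edgeR adjusted p = 1.42e-05). L-type Cacna1c changed by -1.25 and -1.27 in the RBP4 and VGAT lines, and L-type Cacna1d by -1.01 and -1.33, all 4 at an edgeR adjusted p of at most 0.05. The Cacna1d call in the RBP4 line was lost without pool 1 (-0.91, edgeR adjusted p = 0.0612) or pool 2.

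The T-type genes stood closer to the homogenate. Cacna1g was at 11.9, 9.46, 9.97, 10.2 and 9.01 cpm in the RBP4 homogenate and 9.18, 9.704, 10.5, 9.42 and 10.4 cpm in RBP4 TRAP. The TRAP values lay within the range of the homogenate, and the log2 difference was -0.04 ± 0.19 (95% interval -0.43 to 0.35, edgeR adjusted p = 0.890). Cacna1h and Cacna1i gave -0.11 (-0.57 to 0.36) and -0.20 (-0.62 to 0.22), neither past the threshold, and with TMM or DESeq2 size factors the values of all 3 genes turned positive, to 0.25, 0.18 and 0.08 with TMM. VGAT libraries held Cacna1g at 7.95, 7.88, 10.7, 10.8 and 7.72 cpm in the homogenate and 6.12, 4.101, 8.04, 6.24 and 5.64 cpm in TRAP, where only replicate 3 reached the lower homogenate values. It fell by 0.58 ± 0.19 on the log2 scale (edgeR adjusted p = 0.0110) and Cacna1i by 0.50 ± 0.18 (edgeR adjusted p = 0.0186), calls that were lost with TMM (-0.33, edgeR adjusted p = 0.143, and -0.25, edgeR adjusted p = 0.239), that of Cacna1i also without pool 2 or 5. The difference of Cacna1h was -0.29 ± 0.16 (edgeR adjusted p = 0.103), and it passed without pool 3 (-0.33, edgeR adjusted p = 0.0482).

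In all, 5 of 8 members were lower in RBP4 TRAP than in the homogenate, against 31.5% of all genes tested, and 5 also without RBP4 TRAP replicate 5. Of the members 7 of 8 were lower in VGAT TRAP, against 41.8% of all genes. Libraries of the groups did not overlap for 4 members in the RBP4 line (Cacna1a, Cacna1b, Cacna1c and Cacna1e), against 23.8% of genes, and for 5 in the VGAT line (these and Cacna1d), against 34.7%. The median log2 difference of the members was -0.93 in the RBP4 and -1.18 in the VGAT line, and that of all genes -0.34 and -0.31. TMM factors moved the median of all genes to -0.05 and -0.06, with 3296 genes higher and 3815 lower in RBP4 TRAP in place of 1427 and 5372, and 4987 and 5530 in VGAT TRAP in place of 3561 and 7106. Relative to the main median, Cacna1a lay at -1.10 and -1.29 and Cacna1e at -0.94 and -1.28. Members are long genes: over the 1160 other genes with at least 9.242 kb of exons the median was -0.87 in the RBP4 and -0.93 in the VGAT line, and 64.2% and 73.8% were lower. Whether length bears on the values of the members was not tested. Markers of other cells were lower in TRAP as well. Astrocyte markers summed to 360 to 1565 cpm in RBP4 TRAP against 2415 to 4821 cpm in the homogenate, with 4 of 5 called lower, and to 150 to 966 cpm against 2044 to 3998 cpm in the VGAT line, with 5 of 5 lower. Of 4 microglial markers 4 were lower in each line, and of 4 thalamic markers 3. Their part in the values of the members was not tested.

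**Figure D2:**
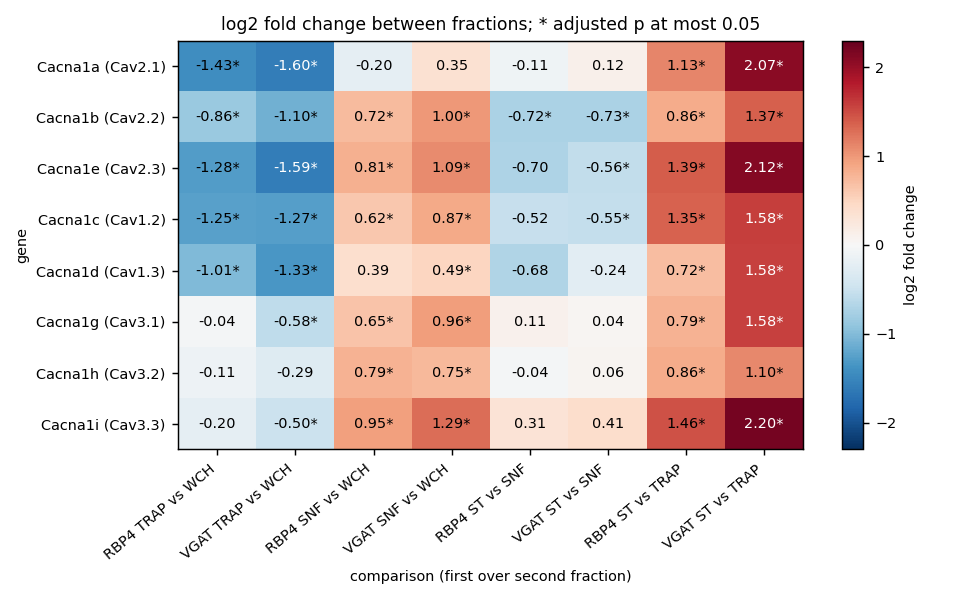
Log2 fold change of each member (rows) in the comparisons of fractions in each line (columns), as colour and printed value, with an asterisk for an edgeR adjusted p of at most 0.05. Cav1 and Cav2 genes are blue in TRAP against WCH, and all 8 genes are red in ST against TRAP.

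The SNF against WCH comparison asks which transcripts are in the synaptic fraction more than in the tissue as a whole. Most pore subunits were higher there, T-type Cacna1i by the most. Cacna1i was at 22.8, 18.2, 21.3, 25.2 and 25.2 cpm in the RBP4 homogenate and 44.1, 52.3, 38.03, 45.8 and 37.6 cpm in RBP4 SNF. VGAT libraries held it at 20.3, 19, 23.7, 19.5 and 26.7 cpm in the homogenate and 57.9, 64.4, 39.4, 51.3 and 53.2 cpm in the SNF. Every SNF library was above every homogenate library in both lines, and the log2 change was 0.95 ± 0.20 (edgeR adjusted p = 0.000820) and 1.29 ± 0.18 (edgeR adjusted p = 2.93e-06).

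Cacna1b was at 109, 114, 124, 117 and 116 cpm in the RBP4 homogenate and 199, 236, 115, 236 and 169 cpm in RBP4 SNF, where replicate 3, the library with the most mitochondrial reads of its group, was the lowest and fell among the homogenate values. Its log2 change was 0.72 ± 0.23 (edgeR adjusted p = 0.0117). In the VGAT line, homogenate libraries had 88.1, 93.9, 108, 113 and 113 cpm and SNF libraries 216, 251, 140.1, 216 and 205 cpm, without overlap and again lowest in replicate 3, a change of 0.996 ± 0.17 (edgeR adjusted p = 3.35e-05). Replicate 3 also had the highest sum of astrocyte markers in the SNF of each line. The sum was 23513 cpm in RBP4 SNF (8329 to 12138 cpm in its other libraries) and 23328 cpm in VGAT SNF (7996 to 10918 cpm). The part of these cells in the low values was not tested. Cacna1e rose by 0.81 ± 0.25 in the RBP4 line (edgeR adjusted p = 0.00945) and 1.09 ± 0.19 in VGAT libraries (edgeR adjusted p = 3.80e-05). Cacna1g rose by 0.65 and 0.96, Cacna1h by 0.79 and 0.75 and Cacna1c by 0.62 and 0.87 in the RBP4 and VGAT lines.

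Cacna1a was called in neither line and Cacna1d in the VGAT line only. P/Q-type Cacna1a was at 56.9, 47.5, 39.1, 49.1 and 67.9 cpm in RBP4 SNF and 52.5, 53.5, 37.3, 71.8 and 79.1 cpm in VGAT SNF, values that overlapped those of the homogenate given above. Its log2 difference was -0.20 ± 0.28 in the RBP4 line (edgeR adjusted p = 0.564) and 0.35 ± 0.26 in the VGAT line (edgeR adjusted p = 0.249), and with TMM 0.13 and 0.69, the latter past the threshold (edgeR adjusted p = 0.0188). Cacna1d gave 0.39 ± 0.29 in the RBP4 line (edgeR adjusted p = 0.264), past the threshold with TMM (0.72, edgeR adjusted p = 0.036), and rose by 0.49 ± 0.19 in the VGAT line (edgeR adjusted p = 0.0298), a call lost without pool 1 (0.43, edgeR adjusted p = 0.112), 2, 4 or 5.

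Thus 6 of 8 members were higher in RBP4 SNF than in the homogenate, against 13.4% of all genes tested, and 7 of 8 in VGAT SNF, against 19.3%. Ranges did not overlap for Cacna1e, Cacna1g and Cacna1i in the RBP4 line, 3 of 8 against 10.5% of genes, and for these with Cacna1b and Cacna1h in the VGAT line, 5 of 8 against 15.2%. The median of the members was 0.68 and 0.91, and that of all genes -0.50 and -0.52, so that relative to all genes Cacna1i lay at 1.45 and 1.80. TMM moved the median of all genes to -0.17 in both lines, and the split of all calls to 3284 higher and 3048 lower in RBP4 SNF, from 2286 and 6161, and to 4187 and 4747 in VGAT SNF, from 3283 and 7680. The other genes of at least 9.242 kb had a median of -0.52 and -0.43, and 15.1% and 23.2% of them were higher. The RBP4 count rested on the library size: with the mitochondrial, rRNA and tRNA reads kept in it 1 member passed, and without pool 1, 2 or 4 the count was 3, 2 or 4. The 3 oligodendrocyte markers summed in the SNF to 3548 to 6803 cpm in the RBP4 and 3774 to 6465 cpm in the VGAT line, with a highest homogenate library of 3548 and 2295 cpm, and astrocyte markers summed to 8329 to 23513 cpm in RBP4 SNF against 2415 to 4821 cpm in the homogenate. Of 5 glutamatergic markers (Slc17a7, Fezf2, Bcl11b, Etv1 and Neurod6), 1 was higher and 4 lower in the SNF of each line. Of 9 GABAergic markers, 4 were higher and 4 lower in RBP4 SNF, and 4 and 5 in VGAT SNF. The part of these cells in the values of the members was not tested.

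The ST against SNF comparison asks which transcripts of the synaptic fraction are on ribosomes of the tagged neurons. N-type Cacna1b was lower in ST in both lines, and Cacna1c and Cacna1e were lower in the VGAT line. Cacna1b was at 111, 147, 63.5, 158 and 97.4 cpm in RBP4 ST and 139, 157, 81.7, 123 and 121 cpm in VGAT ST, each pool below its own SNF value. The log2 change was -0.72 ± 0.23 in the RBP4 line (edgeR adjusted p = 0.0398) and -0.73 ± 0.17 in the VGAT line (edgeR adjusted p = 0.00253). The RBP4 call was lost without pool 1, 2, 4 or 5, and both calls with no genes left out of the library size (-0.51, edgeR adjusted p = 0.223, and -0.50, edgeR adjusted p = 0.0789).

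Cacna1e was at 344, 422, 240.2, 409 and 300.2 cpm in RBP4 SNF and at 175, 256, 130, 356 and 136 cpm in RBP4 ST, where replicate 4 was the highest. Its difference was -0.70 ± 0.25 (edgeR adjusted p = 0.0660). It passed with the pool as a block (-0.74, edgeR adjusted p = 0.0329) and without RBP4 ST replicate 4 (-0.98, edgeR adjusted p = 0.00981). VGAT libraries held it at 382, 386, 250.1, 341 and 413 cpm in the SNF and 305, 312, 177, 201 and 204 cpm in ST, lower in ST in each pool, and it fell by 0.56 ± 0.19 on the log2 scale (edgeR adjusted p = 0.0283). Cacna1c fell by 0.55 ± 0.20 in the VGAT line (edgeR adjusted p = 0.0411) and gave -0.52 in the RBP4 line (edgeR adjusted p = 0.186). The VGAT calls of Cacna1c and Cacna1e were lost without pool 4 (edgeR adjusted p = 0.179 and 0.0968) or 5, and that of Cacna1c also without pool 1 or 2. Both were lost with no genes left out of the library size (edgeR adjusted p = 0.318 and 0.273) and with all 40 libraries in 1 fit (edgeR adjusted p = 0.0874 and 0.0689), and both passed without VGAT ST replicates 1 and 2.

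The Cav3 genes were not called between these fractions. Cacna1i was at 41.3, 66.6, 46.4, 76.4 and 40.03 cpm in RBP4 ST, with values of replicates 2 and 4 above all SNF libraries. In VGAT ST it was at 96.03, 83.5, 57.4, 56.9 and 60.3 cpm, higher than the SNF in 5 of 5 pools. Its log2 difference was 0.31 ± 0.20 (edgeR adjusted p = 0.345) and 0.41 ± 0.17 (edgeR adjusted p = 0.0841), the latter 0.13 without VGAT ST replicates 1 and 2 (edgeR adjusted p = 0.662). Cacna1g gave 0.11 (95% interval -0.28 to 0.49) and 0.04 (-0.34 to 0.42), and Cacna1h -0.04 (-0.50 to 0.42) and 0.06 (-0.25 to 0.38).

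The count of members lower in ST than in SNF was 1 of 8 in the RBP4 line, against 5.46% of all genes, or 2 with the block, and 3 of 8 in the VGAT line, against 11.2%. In the VGAT line TMM changed the split of all genes from 2771 higher and 1905 lower to 1987 and 2480. Members had a median of -0.31 and -0.10 in the RBP4 and VGAT lines, and all genes -0.05 and 0.08. Of the other genes of at least 9.242 kb, 11.03% and 15.3% were lower. Of 3 oligodendrocyte markers, 2 and 2 were higher and 0 and 1 lower. Of 9 GABAergic markers, 0 were higher and 4 lower in RBP4 ST, and 2 and 0 in VGAT ST. Of 5 glutamatergic markers, 0 were higher and 0 lower in RBP4 ST, and 1 and 1 in VGAT ST. Of 3 endothelial markers, 2 were higher and 0 lower in each line. Of 5 astrocyte markers 0 and 1 were higher, and of 4 microglial markers 0 and 2 were lower. Their part in the values of the members was not tested. Local translation candidates, in the definition of the study, lie above SNF in ST and above WCH in SNF. With an unadjusted p under 0.05 in both steps, the threshold used here, no member qualified in the RBP4 line (0.417% of all genes did) and Cacna1i alone in the VGAT line (1.29% of all genes). Cacna1i did not qualify with TMM or DESeq2 size factors, with DESeq2, or without VGAT pool 1. With the adjusted p held to 0.05 in both steps, a rule added after seeing the data, no member qualified in either line, where 0.188% and 0.789% of all genes did. For somatic candidates, TRAP above WCH and WCH above SNF, no member qualified in either line, where 5.94% and 13.2% of all genes did. DESeq2 gave 0 members for these 3 counts of 0, and 1 RBP4 local translation candidate appeared with no genes left out.

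The ST against TRAP comparison sets the ribosome-bound RNA of the synaptic fraction beside that of the whole cell, both from the same line. All 8 pore subunits were higher in ST, in both lines. Cacna1i, at 14.3 to 25.8 cpm in RBP4 TRAP and 40.03 to 76.4 cpm in RBP4 ST, rose by 1.46 ± 0.20 on the log2 scale (edgeR adjusted p = 3.95e-06). In the VGAT line its values were 13.3, 11.5, 20.7, 14.6 and 17.1 cpm in TRAP against 56.9 to 96.0 cpm in ST, and the change was 2.2 ± 0.18 (edgeR adjusted p = 9.65e-10). Cacna1e rose by 1.39 ± 0.25 and 2.12 ± 0.20, Cacna1a by 1.13 ± 0.28 and 2.07 ± 0.27, and Cacna1c by 1.35 ± 0.25 and 1.58 ± 0.20 in the RBP4 and VGAT lines. The smallest changes were those of Cacna1d in the RBP4 line, 0.72 ± 0.29 (edgeR adjusted p = 0.0413), and of Cacna1h in the VGAT line, 1.104 ± 0.16 (edgeR adjusted p = 1.61e-06).

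Of all genes tested, 26.0% were higher in RBP4 ST than in RBP4 TRAP, beside the 8 of 8 members, and 37.5% in the VGAT line, beside 8 of 8. The groups did not overlap for 3 members in the RBP4 line (Cacna1e, Cacna1g and Cacna1i), against 13.6% of genes, and for all 8 in the VGAT line, against 24.3%. Without VGAT ST replicates 1 and 2 all 8 were called in the VGAT line. Without RBP4 TRAP replicate 5 all 8 members passed, and without RBP4 ST replicate 4 all but Cacna1d did (0.50, edgeR adjusted p = 0.155). Cacna1d was also lost without RBP4 pool 1 or 2. The median of the members was 0.99 and 1.58 in the RBP4 and VGAT lines, and that of all genes -0.07 and 0.08. Among the other genes of at least 9.242 kb, 45.3% and 64.0% were higher, with medians of 0.51 and 0.77. Markers of other cells were higher in ST than in TRAP as well: 3 of 3 oligodendrocyte, 5 of 5 astrocyte, 4 of 4 microglial and 3 of 3 endothelial markers in each line. Of 9 GABAergic markers, 9 were lower in VGAT ST than in VGAT TRAP, and 7 were higher in the RBP4 line. Of 6 striatal markers, 6 were lower in the VGAT line and 5 higher in the RBP4 line. Of 5 glutamatergic markers, 1 was higher and 3 lower in RBP4 ST, and 3 were higher and 1 lower in VGAT ST. Astrocyte markers summed to 3599 to 19820 cpm in RBP4 ST and 4636 to 17510 cpm in VGAT ST, above the TRAP sums given before. The part of these cells in the values of the members was not tested.

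The make-up of the family was compared as each member's share of the sum over the 8 genes, per length, which does not move with the scaling of a library. The T-type share was larger in both ribosome-bound fractions than in the fractions they were captured from. In the RBP4 line it was 12.7% ± 1.51 (SD, n = 5) in the homogenate and 22.6% ± 2.98 in TRAP, or 23.7% without replicate 5, and 15.1% ± 1.59 in the SNF and 23.97% ± 2.87 in ST. In the VGAT line it was 13.6% ± 0.898 in the homogenate, 22.1% ± 0.989 in TRAP, 15.5% ± 1.02 in the SNF and 24.01% ± 2.98 in ST. The shares of all 10 TRAP libraries, 18.2% or more, stood above those of all 20 homogenate and SNF libraries, at most 17.8%, and so did those of all 10 ST libraries, 20.8% or more. Shares were not tested, as all 3 classes of a library sum to the whole.

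The Cav2 share made up the difference for the most part, with 70.0% and 68.9% in the RBP4 and VGAT homogenates, 62.4% and 61.8% in TRAP, 69.2% and 69.8% in the SNF and 62.0% and 61.7% in ST. The Cav1 share lay between 14.1% and 17.6% in all group means. The ratio of Cacna1i to Cacna1e per length, T-type against R-type, gave the same order of fractions. It was 0.294 in the RBP4 and 0.331 in the VGAT homogenate, 0.326 and 0.38 in the SNF, 0.623 and 0.718 in TRAP and 0.685 and 0.747 in ST. Over the 40 libraries the levels of Cav1 and Cav2 genes followed each other (Pearson r of log2(cpm + 0.5) between 0.81 and 0.97), and so did those of the Cav3 genes (0.86 to 0.90), while r between a Cav3 gene and any other was 0.65 to 0.80. These libraries share pools and lie in 8 groups, so that the points are not independent.

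**Figure D3:**
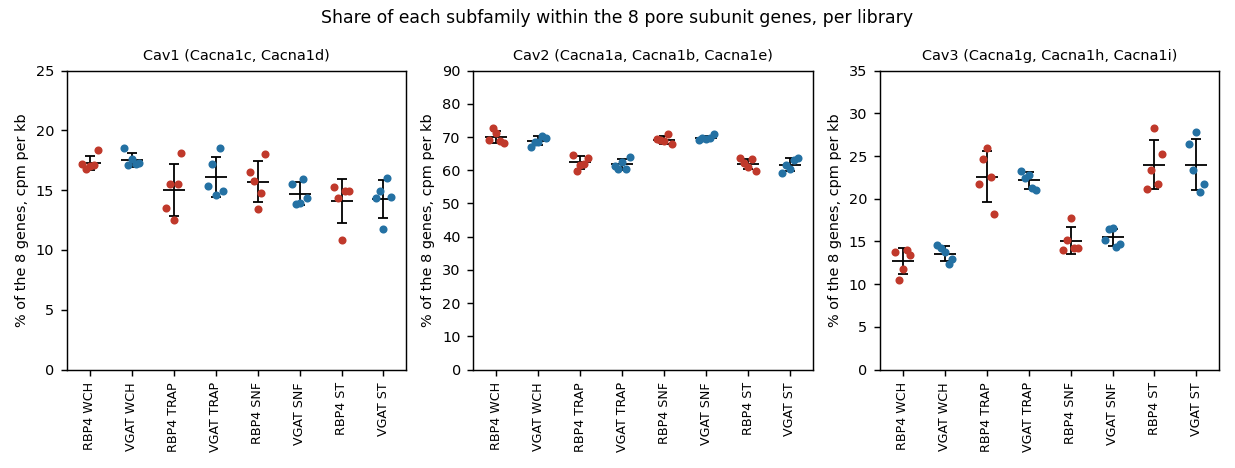
Share of the Cav1, Cav2 and Cav3 classes in the summed cpm per kb of the 8 genes, in percent, with a point for each library (red RBP4, blue VGAT) and black bars for the mean ± SD of 5, by line and fraction. The Cav3 share lies between 18.2% and 28.3% in TRAP and ST libraries and at or under 17.8% in WCH and SNF libraries.

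Between the lines, the comparisons in TRAP and ST ask whether layer 5 pyramidal and GABAergic neurons differ in the same fraction. RNA of WCH and SNF was not captured on tagged ribosomes, so that there the comparison is of the tissue of the lines, not of these neurons. The T-type subunit Cacna1g was higher in RBP4 TRAP, and no other member was called in any fraction. Cacna1g was at 9.18, 9.704, 10.5, 9.42 and 10.4 cpm in RBP4 TRAP and 6.12, 4.101, 8.04, 6.24 and 5.64 cpm in VGAT TRAP. The groups did not overlap, and the log2 difference was 0.71 ± 0.19 (95% interval 0.32 to 1.10, edgeR adjusted p = 0.00503), or 0.69 without RBP4 TRAP replicate 5 (edgeR adjusted p = 0.0105). Markers of the striatum (Drd1, Drd2, Adora2a, Tac1, Penk and Ppp1r1b) summed to 107 to 271 cpm in RBP4 and 3178 to 4949 cpm in VGAT TRAP, and glutamatergic markers (Slc17a7, Fezf2, Bcl11b, Etv1 and Neurod6) to 827 to 1317 cpm and 198 to 397 cpm, with 4 of the latter higher and 1, Bcl11b, lower in RBP4 TRAP, and their part in the difference was not tested. In the homogenates of the lines the difference of Cacna1g was 0.16 ± 0.19, in the same direction, and the difference between TRAP and homogenate was not past the threshold (0.54, 95% interval -0.00226 to 1.09, edgeR adjusted p = 0.219).

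All 8 members had a value above 0 in RBP4 against VGAT TRAP, as in the homogenates, and without RBP4 TRAP replicate 5 that of Cacna1c was -0.10. Cacna1h was at 9.77, 10, 9.497, 10.4 and 14.9 cpm in RBP4 TRAP and 6.95, 7.73, 9.12, 8.88 and 8.46 cpm in VGAT TRAP, without overlap, with a difference of 0.41 ± 0.19 (edgeR adjusted p = 0.106) that passed with TMM (0.46, edgeR adjusted p = 0.0353). Cacna1e differed by 0.55 ± 0.23 (edgeR adjusted p = 0.0795), and passed with TMM (0.59, edgeR adjusted p = 0.0439) and without VGAT pool 5 (0.69, edgeR adjusted p = 0.0396). Cacna1a, Cacna1d and Cacna1e were highest in RBP4 TRAP replicate 5, without which they gave 0.05, 0.18 and 0.35 in place of 0.54, 0.55 and 0.55. The count of 1 of 8 higher in RBP4 TRAP stands beside 12.9% of all genes, and that of 0 lower beside 15.1%. DESeq2 called 2, and 5 were under an unadjusted p of 0.05. The ranges of 2 members, Cacna1g and Cacna1h, did not overlap, against 9.58% of genes.

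In ST no member differed between the lines at the threshold. Fewer neuronal markers were called between the lines there than in TRAP. Of 5 glutamatergic markers 0 were called in ST, while 2 of 6 striatal and 3 of 9 GABAergic markers were lower in the RBP4 line. The bearing of this on the members was not tested. Cacna1i gave -0.39 ± 0.20 (95% interval -0.79 to 0.02) and Cacna1a -0.41 ± 0.30 (-1.01 to 0.20), the values farthest from 0. Cacna1g, called in TRAP, gave -0.08 (-0.46 to 0.30). Without VGAT ST replicates 1 and 2 no member was called, Cacna1i gave -0.10, and Cacna1b, Cacna1c, Cacna1e and Cacna1g turned to 0.09, 0.19, 0.12 and 0.11. In edgeR 0 of 8 were called in either direction, against 0.0592% of all genes higher and 0.266% lower, with 0 under an unadjusted p of 0.05 and 0 by DESeq2. In WCH likewise 0 members were called (0.00592% of genes higher and 0.00592% lower), and 0 in SNF (0.00592% higher and 0.0118% lower), with 0 under an unadjusted p of 0.05 and 0 by DESeq2 in each.

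The difference between the lines was itself compared between fractions. For ST less TRAP all 8 members had a value below 0, from -0.23 for Cacna1c to -0.94 for Cacna1a, with -0.79 ± 0.27 for Cacna1g (edgeR adjusted p = 0.0529). Without RBP4 TRAP replicate 5, Cacna1c gave 0.0073 and Cacna1a -0.45, and without VGAT ST replicates 1 and 2 Cacna1c gave 0.053 and Cacna1g -0.60. In edgeR 0 of 8 were called, against 5.79% of all genes lower, with 5 under an unadjusted p of 0.05 and 0 by DESeq2. Without RBP4 ST replicate 4, 3 passed: Cacna1e (-1.01), Cacna1g (-0.88) and Cacna1i (-0.89). For TRAP less WCH 0 were called (5.63% of genes higher) and for ST less SNF 0 (0.0% of genes lower), with 0 under an unadjusted p of 0.05 and 0 by DESeq2 in both.

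**Figure D4:**
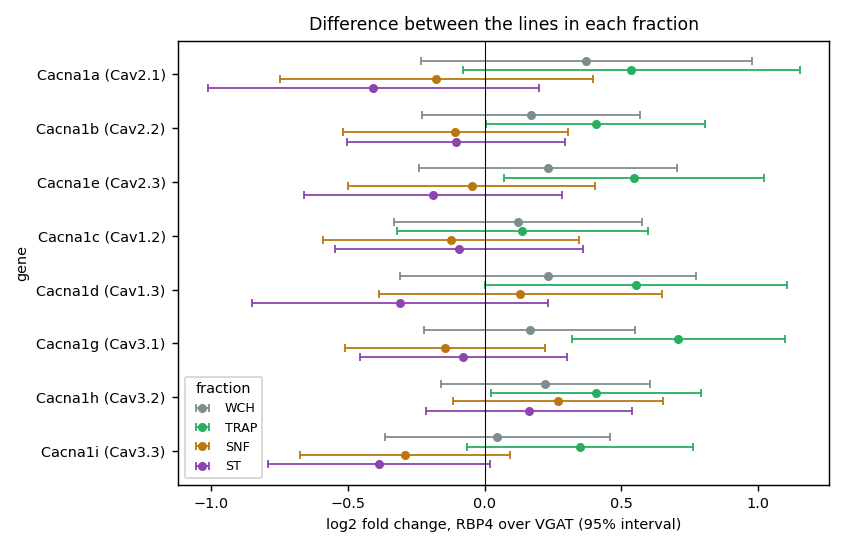
Log2 fold change of RBP4 over VGAT for each member in WCH, TRAP, SNF and ST (colours), with 95% intervals that are not adjusted for the number of genes. Cacna1g in TRAP, at 0.71, is the one point past the adjusted threshold, and every interval in WCH, SNF and ST holds 0.

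Pore subunits work with auxiliary subunits, of which alpha2delta subunits carry channels to the surface and beta subunits bind inside the cell. The gamma family includes TARPs, which mainly serve AMPA receptors. Between the lines in TRAP, 12.9% of all genes were higher and 15.1% lower in the RBP4 line, against which the counts below stand. Of 4 alpha2delta genes 1 was higher and 1 lower in RBP4 TRAP. Cacna2d1 had 154 ± 23.8 cpm (SD, n = 5) in RBP4 and 58.1 ± 16.4 cpm in VGAT TRAP, a log2 difference of 1.404 ± 0.25. Cacna2d2 had 5.72 ± 2.29 cpm in RBP4 and 36.5 ± 5.29 cpm in VGAT TRAP (-2.67 ± 0.24), and it was also lower in RBP4 than in VGAT ST (11.6 ± 3.53 and 25.4 ± 7.82 cpm, -1.13 ± 0.23, edgeR adjusted p = 0.0186).

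Of 4 beta genes 1 was called in TRAP, Cacnb3, which was higher in the RBP4 line (0.52 ± 0.16). Of 5 gamma genes that passed the filter, Cacng3 was higher in RBP4 TRAP (0.66 ± 0.21), and the 4 others, Cacng1 (-4.85 ± 0.52), Cacng2 (-1.401 ± 0.16), Cacng4 (-2.35 ± 0.29) and Cacng5 (-1.504 ± 0.25), were lower. Cacng2 encodes stargazin, a TARP. Cacng6, Cacng7 and Cacng8 were listed at 0 in all 40 libraries, so that nothing is said of their expression. In ST 0 beta and 0 gamma genes were called between the lines. Of 9 partners (Rims1, Rims2, Rimbp2, Stx1a, Snap25, Stac2, Akap5, Calm2 and Calm3), which anchor or regulate channels, 2 were higher and 2 lower in RBP4 TRAP, and 0 were called in ST. The other pore genes, retinal Cacna1f and muscle Cacna1s, had means of 0.125 to 0.626 cpm and 0.138 to 0.483 cpm over the groups and were not called between the lines.

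**Figure D5:**
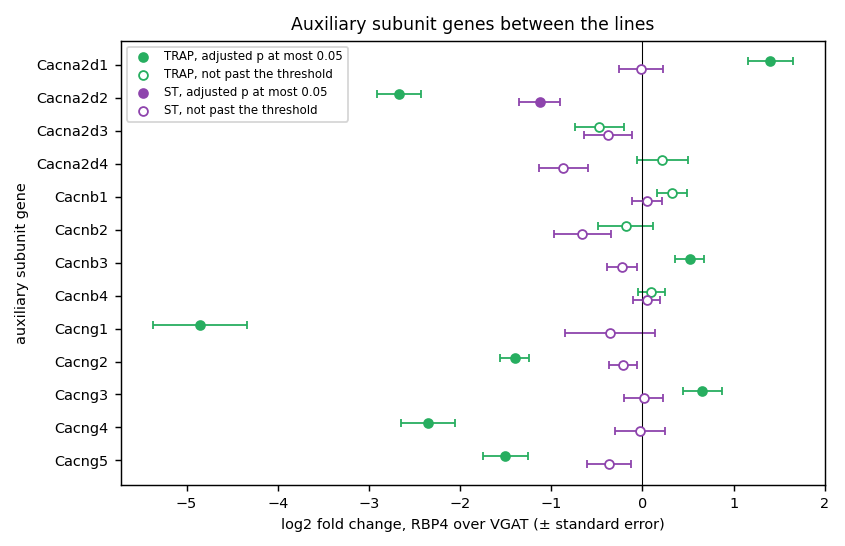
Log2 fold change of RBP4 over VGAT for alpha2delta, beta and gamma genes in TRAP (green) and ST (purple), with bars of 1 SE and filled points for an edgeR adjusted p of at most 0.05. Cacna2d1 and Cacna2d2 lie on opposite sides of 0 in TRAP.

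In the SNF against the homogenate most alpha2delta genes were higher, as were most pore subunits, and most beta genes were lower. Against the homogenate, 4 of 4 alpha2delta genes were higher in RBP4 SNF and 3 of 4 in VGAT SNF, while 0 of 4 beta genes were higher and 3 of 4 lower in each line, where 13.4% of all genes were higher and 36.1% lower in RBP4 SNF and 19.3% and 45.2% in VGAT SNF. Cacna2d1 rose by 1.19 ± 0.25 in RBP4 SNF (edgeR adjusted p = 0.000718) and Cacnb4 fell by 1.27 ± 0.17 on the log2 scale (edgeR adjusted p = 6.89e-05). In ST against TRAP, 4 of 4 alpha2delta genes rose in RBP4 libraries, and 3 rose and 1 fell in VGAT libraries, and of the beta genes 1 was higher and 3 lower in the RBP4 line and 1 higher and 2 lower in the VGAT line. Of all genes 26.0% rose and 29.1% fell in RBP4 ST against TRAP, and 37.5% and 34.0% in VGAT ST. Cacnb3 was the beta gene that rose in ST against TRAP in both lines, by 0.84 and 1.58. Of 5 gamma genes, 3 were higher and 0 lower in RBP4 SNF than in the homogenate, and 4 and 0 in VGAT SNF. Of the 9 partners, 0 were higher and 5 lower in RBP4 SNF, and 0 and 7 in VGAT SNF, beside the same shares of all genes lower, 36.1% and 45.2%. In TRAP against the homogenate, 0 alpha2delta genes were higher and 2 lower in the RBP4 line, and 1 and 2 in the VGAT line, 1 beta gene was higher in each line and 2 and 1 lower, and of the partners 3 were higher and 3 lower in the RBP4 line and 2 and 4 in the VGAT line. The shares of all genes were 8.37% higher and 31.5% lower for the RBP4 line and 21.0% and 41.8% for the VGAT line.

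The genes whose level over the 40 libraries was most like that of a member were taken from 14032 genes other than the members whose mean was 1 cpm or more, by Pearson r of log2(cpm + 0.5). For Cacna1b they were Scn8a (r = 0.97), a sodium channel gene, Fras1 (0.97) and Plxna4 (0.96), for Cacna1e Plxna4, D630045J12Rik and Tenm4 (each 0.97), and for Cacna1c Fras1, Plxna4 and Abi3bp (each 0.96). Cacna1a was nearest to Cntrl (0.95), Csmd2 and Slc12a9 (each 0.91), and Cacna1d to Pcdh9 (0.93), Abcc1 and Atp11a (each 0.92). Among T-type genes, Cacna1i was nearest to Adgrl1 (0.96), Srebf2 (0.95) and Elfn2 (0.94), Cacna1g to Pcnx2 (0.96), Adgrb1 (0.95) and Tyro3 (0.94), and Cacna1h to Adam11 and Pcnx2 (each 0.93) and Clstn1 (0.92). Plxna4 and Fras1 recurred among Cav1 and Cav2 genes and Pcnx2 among T-type genes. These libraries share pools and fractions, and r is a description.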

How the data were processed

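RNA sequencing of 40 mouse libraries was used, 5 replicates of 4 fractions in 2 lines, grouped by their labels. The authors aligned single reads of 50 bases with STAR 2.0.4b and counted uniquely aligned, unambiguous reads per gene with Subread featureCounts 1.4.5. The counts as deposited are whole numbers without normalization. The CPM values that the authors deposited are these counts scaled to the library total, and the RPKM values that the authors deposited are the CPM per kb of exon. Both were used only to check the counts. How the authors' counting treated exons of overlapping genes was not given beyond this.

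Here 390 mitochondrial, rRNA and tRNA genes were left out (GENCODE M21, GRCm38), and cpm was computed on the remaining library sizes without a further factor. Genes that reached 0.5 cpm in 3 or more libraries were tested with edgeR 4.0.16 in R 4.3.3 (quasi-likelihood test, Benjamini-Hochberg adjustment over all genes, threshold 0.05). Within a line 20 libraries entered, with 17043 (RBP4) or 16990 (VGAT) genes. Between lines the WCH, TRAP and ST libraries of both lines entered, or all 40 libraries for comparisons with SNF. There the filter asked for 0.5 cpm in 3 or more TRAP or ST libraries, and 16898 genes were tested. The methods state that the 4 fractions of a replicate came from 1 pool, which pairs replicate numbers within a line. Deviations of same-numbered libraries correlated by -0.006 to 0.484 on average in the 8 comparisons within a line. Between lines the numbers name different pools, although same-numbered libraries correlated by 0.0524 to 0.225 on average (-0.491 to 0.763 for single pairs). Tests were tried on simulated counts.

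All 8 members are named, with the called alpha2delta, beta and gamma genes in RBP4 against VGAT TRAP and ST and, for each member, the 3 genes of highest correlation. Examples of auxiliary genes between fractions were chosen after their values were seen. The members and lists were chosen with earlier results of these data known, and some genes of the partner and marker lists are not reported here and were left out of their counts and sums. Alternatives were TMM and DESeq2 size factors, DESeq2 1.42.0, a likelihood ratio test, other filters, no genes left out, all 40 libraries in 1 fit, the pool as a block and each pool left out. Leaving out RBP4 TRAP replicate 5 alone, leaving out VGAT ST replicates 1 and 2, an adjusted threshold for candidates and describing other long genes were chosen after seeing the data. Tables and figures used Python 3.11.15, numpy 2.4.6, pandas 2.3.3, scipy 1.17.1 and matplotlib 3.10.9. A planned comparison of the protein sequences was not run, as no protein sequences were used here.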

Additional observations from a re-analysis of the deposited data

Results flagged for a closer look

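Of 64 sets of 5 libraries (8 genes in 8 groups), 8 held a library far from the 4 others by Dixon's criterion for 5 samples (0.71), which chance gives in about 1 in 20 sets. Of these, 5 were RBP4 TRAP replicate 5, the highest library of its group for Cacna1a (47.7 cpm), Cacna1c (34.5 cpm), Cacna1d (32.6 cpm), Cacna1e (122 cpm) and Cacna1h (14.9 cpm). The same library had the highest oligodendrocyte and GABAergic marker sums of its group, and their part in these values was not tested. Replicate 1 was far above the others in the RBP4 homogenate for Cacna1a (75.3 cpm). Replicate 3 was far below the others in RBP4 SNF for Cacna1d (24.1 cpm), as was replicate 2 in the VGAT homogenate for Cacna1h (9.07 cpm).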

How the results depend on the processing

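Of the recomputed counts and shares, 584 stayed within 1.5 times the main count or 1 SD of the share and 43 did not. Of the recomputed differences of single members, 1312 kept their direction and side of the threshold, 52 changed sign, 32 passed the threshold newly and 52 no longer passed. Members higher in RBP4 than VGAT TRAP numbered 3 with TMM, 2 with DESeq2 and 1 to 2 with a pool left out. Members lower in the line difference ST less TRAP numbered 1 with the likelihood ratio test, with the 1 cpm filter and with all 40 libraries in 1 fit, 3 without RBP4 ST replicate 4, and 0 to 3 with a pool left out. Members higher in RBP4 SNF numbered 1 with no genes left out and 2 to 6 with a pool left out. Members lower in RBP4 ST than SNF numbered 2 with DESeq2, the likelihood ratio test, all 40 libraries or without ST replicate 4, 0 with no genes left out, and 0 to 1 with a pool left out. In VGAT ST against SNF 1 was higher and 0 were lower with no genes left out, 1 was lower with all 40 libraries, and 1 to 3 with a pool left out. RBP4 local translation candidates numbered 1 with no genes left out, and VGAT candidates 0 with TMM, DESeq2 size factors or DESeq2 or at the adjusted threshold and 0 to 1 with a pool left out. The pool as a block raised the RBP4 count in ST against SNF from 1 to 2 and changed no other call of a member, and between lines, where a number names different pools, it changed no count. Without division by length the Cav3 share was 8.89% and 9.52% in the RBP4 and VGAT homogenates, 16.9% and 16.6% in TRAP, 10.2% and 10.6% in SNF and 17.1% and 17.0% in ST. The cause of these shifts was not tested.

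Values that changed sign were small and not called. In RBP4 TRAP against WCH they were Cacna1g (0.25 with TMM, DESeq2 size factors and DESeq2, 0.059 with no genes left out, -0.10 to 0.050 with a pool left out), Cacna1h (0.18, 0.17 and 0.17) and Cacna1i (0.083, 0.076 and 0.076). In RBP4 SNF against WCH Cacna1a gave 0.13, 0.22 and 0.22 with these scalings. In RBP4 ST against SNF, with no genes left out, Cacna1a gave 0.11 and Cacna1h 0.17, and Cacna1a gave -0.25 to 0.032 with a pool left out. In VGAT ST against SNF, Cacna1a gave -0.025 with both DESeq2 size factors and DESeq2, Cacna1g -0.050, -0.10 and -0.10 and Cacna1h -0.048, -0.092 and -0.092 with the 3 scalings, and Cacna1g -0.066 to 0.15 with a pool left out. Between the lines in ST, Cacna1b gave 0.020 and Cacna1c 0.026 with DESeq2 size factors and with DESeq2, Cacna1g 0.0017 with TMM and 0.030 with the others, and with a pool left out Cacna1b -0.24 to 0.050, Cacna1c -0.28 to 0.067 and Cacna1g -0.18 to 0.026. Without RBP4 TRAP replicate 5, Cacna1c gave -0.10 between the lines in TRAP and 0.0073 in ST less TRAP, and with a pool left out -0.10 to 0.23 and -0.44 to 0.047. Without VGAT ST replicates 1 and 2, Cacna1b, Cacna1c, Cacna1e and Cacna1g gave 0.090, 0.19, 0.12 and 0.11 between the lines in ST, Cacna1c 0.053 in ST less TRAP, and Cacna1g -0.15 and Cacna1h -0.069 in VGAT ST against SNF. At the lowest counts, those of Cacna1g, depth limits the precision of a library.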

Other observations

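The balance of the presynaptic pair, P/Q-type Cacna1a over N-type Cacna1b per length, had group means that differed by fraction, with ranges that mostly overlapped. It was 0.451 ± 0.085 (SD, n = 5) in the RBP4 and 0.386 ± 0.0876 in the VGAT homogenate, and 0.25 ± 0.075 and 0.251 ± 0.061 in SNF. In TRAP it was 0.283 ± 0.105 and 0.268 ± 0.0587, and in ST 0.390 ± 0.128 and 0.463 ± 0.146. Every RBP4 homogenate library, at 0.396 or more, lay above every RBP4 SNF library, at 0.35 or less, while the VGAT ranges of these fractions overlapped. In the VGAT line TRAP, at 0.318 or less, did not overlap ST, at 0.333 or more. The ranges of all other pairs of fractions within a line overlapped. The ratio of the L-type genes, Cacna1c over Cacna1d, had group means of 0.578 to 0.901, with overlapping ranges between the fractions of each line except RBP4 TRAP, at 0.462 to 0.683, and RBP4 ST, at 0.745 to 0.978. These ratios were looked at after the data were seen and were not tested.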
